A study of Homo sapiens with 14 samples.

Results

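The 9 genes described here make and load MHC class I molecules, the surface proteins that show peptides from inside a cell to T cells. They are HLA-B and HLA-C (heavy chains that bind peptides), HLA-E (a heavy chain read by natural killer cells), B2M (the light chain, beta-2-microglobulin), TAP1 and TAP2 (the peptide transporter), TAPBP (tapasin, which ties the transporter to empty heavy chains), ERAP1 (which trims peptides) and NLRC5 (a transactivator of class I genes). They were taken by symbol as named members of the pathway, and all 9 were listed among the 27819 genes that the 4 count tables share. In each comparison 4 or 5 of the 9 had enough counts to be tested.

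The RNA came from CWR22Rv1 cells, an established human prostate cancer line. All cultures were kept for 72 h either in the DMSO vehicle (3 libraries) or in 1 of 4 glycosylation inhibitors, and all groups share that single line. Fucotrim I (30 μM, 3 libraries) and Fucotrim II (60 μM, 2 libraries) are rhamnose-1-phosphate derivatives aimed at GMDS, an enzyme that makes GDP-fucose, SGN-2FF (100 μM, 3 libraries) is the fucose analogue 2-fluorofucose, and P-SiaFNEtoc (2 μM, 3 libraries) blocks sialyltransferases. The comparisons ask how the expression of each gene differs between an inhibitor and DMSO. The doses differ between inhibitors, so the values are given side by side and the inhibitors were not tested against each other. Class I heavy chains are N-glycosylated proteins, and their folding in the endoplasmic reticulum passes through the lectin chaperones calnexin and calreticulin, which bind a sugar on the new chain.

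Class I molecules are assembled in steps. The proteasome cuts cytosolic proteins, TAP1 and TAP2 pump the pieces into the endoplasmic reticulum, ERAP1 shortens them, and tapasin, calreticulin and the disulfide isomerase PDIA3 hold a heavy chain with B2M until a peptide fits. NLRC5, the RFX and NFY proteins and interferon-activated factors bind the promoters of these genes and set their transcription, and prostate cancers are known to show low class I at the surface.

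With the Fucotrims, HLA-B and HLA-C were higher than in DMSO. HLA-C rose 2.14-fold with 60 μM Fucotrim II and 1.28-fold with 30 μM Fucotrim I, and HLA-B rose 1.61-fold and 1.39-fold. The calls with Fucotrim I were not kept in every alternative fit. B2M, the partner chain of both, was not called with either Fucotrim. With SGN-2FF it was called lower, at 0.834 of its DMSO level, where 9.08% of all genes tested were called lower. That call was lost by the DESeq2 test and without some single libraries, and the counts of B2M may be incomplete. ERAP1 was not called with any of the 4 inhibitors. HLA-E, TAP1, TAP2 and TAPBP had between 0 and 3 counts in every library, and neighbouring genes that every cell uses were also near 0 there, so no expression level is read from those counts.

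The hg38 reference holds exon sequence of all members but ERAP1 and NLRC5 more than once. The hg38 assembly holds 261 alternative contigs, extra versions of variable regions, and 16 of them belong to chromosome 6. Each gene's exons were read in 50-base windows at 10-base steps, and each window was looked up on those contigs. The shares found there were 75.2% of 435 windows for HLA-B (chromosome 6, 31353872 to 31367067, minus strand), 90.9% of 232 for HLA-C (chromosome 6, 31268749 to 31272130, minus strand) and 100% of 266 for HLA-E (chromosome 6, 30489509 to 30494194, plus strand). They were 100% of 421 for TAP1 (chromosome 6, 32845209 to 32853816, minus strand), 99.5% of 992 for TAP2 (chromosome 6, 32821833 to 32838739, minus strand) and 100% of 639 for TAPBP (chromosome 6, 33299694 to 33314284, minus strand). For B2M (chromosome 15, 44711358 to 44718851, plus strand) the share was 93.4% of 290, and all 25 of its wholly coding windows were among them. ERAP1 (chromosome 5, 96760810 to 96808100, minus strand) and NLRC5 (chromosome 16, 56989485 to 57083531, plus strand) had no window on them. Some transcript sequence was also found under other gene names, matched by letters and not by position. Such a match can be the same bases listed under another name, and this was not tested. Of 345 windows of 100 bases in the longest HLA-B transcript, 118 (34.2%) also occurred in DHFRP2. For TAP2 173 of 610 (28.4%) were shared with another gene, and for HLA-E 2 of 245 with HLA-G. The part of this sharing in the counts was not tested.

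Coding windows of hg38 show short stretches of its sequence, each 5′ to 3′ on the strand of its gene. The study's reads were longer than these windows. A share of windows on the contigs is therefore not a share of reads, which was not tested. For HLA-B and HLA-C the first window of each pair occurs unaltered on 1 alternative contig, and the second occurs on none, with the base that differs from its nearest match there in capitals. For HLA-E, B2M and TAP1 the window shown occurs unaltered on 6, 1 and 7 contigs.
HLA-B, chr6:31357109-31357158: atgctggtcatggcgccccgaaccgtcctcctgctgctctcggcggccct
HLA-B, chr6:31356889-31356938: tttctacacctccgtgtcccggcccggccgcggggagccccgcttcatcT
HLA-C, chr6:31272022-31272071: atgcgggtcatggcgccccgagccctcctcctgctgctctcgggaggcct
HLA-C, chr6:31271640-31271689: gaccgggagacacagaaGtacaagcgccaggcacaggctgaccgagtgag
HLA-E, chr6:30489532-30489581: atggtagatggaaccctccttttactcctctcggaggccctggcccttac
B2M, chr15:44711547-44711596: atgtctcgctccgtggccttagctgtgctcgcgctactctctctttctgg
TAP1, chr6:32853587-32853636: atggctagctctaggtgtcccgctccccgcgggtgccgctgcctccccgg

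**Figure D1:**
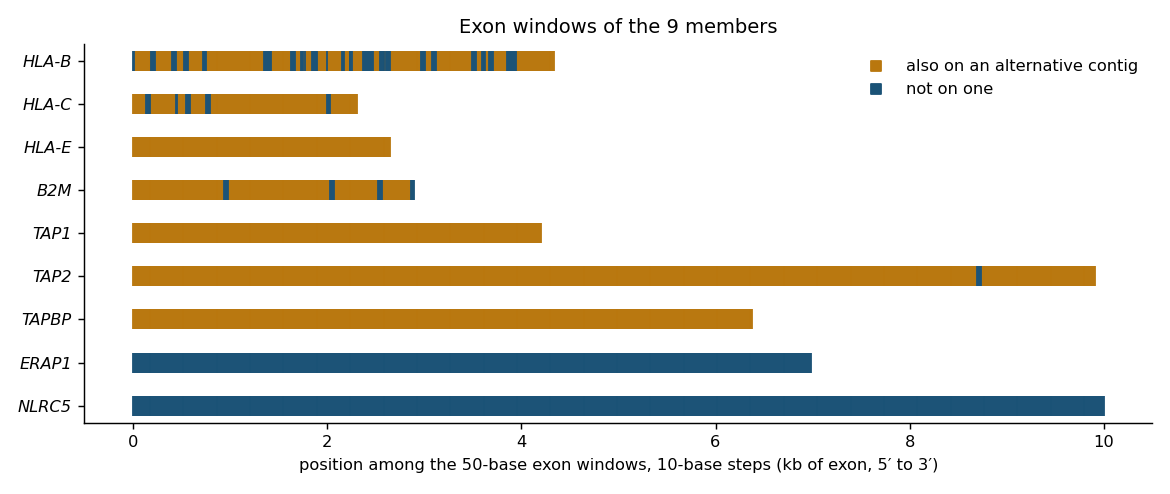
Exon windows of the 9 genes in order from 5′ to 3′, in kb of exon counted in 10-base steps, coloured by whether the window also occurs on an alternative contig of hg38. HLA-E, TAP1 and TAPBP have no window off the contigs, TAP2 has 5, B2M 19, HLA-C 21 and HLA-B 108, while ERAP1 and NLRC5 lie wholly off them.

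Along chromosome 6 most genes with high shares had few counts. Within 3000 kb of the start of HLA-B, 138 of the 160 protein-coding genes with 90% or more of their windows on alternative contigs had under 10 counts in every library, against 6 of the 18 genes with under 50%. The classes were not matched for the kinds of gene they hold. Olfactory receptor genes were among the 138, and so were genes that every cell uses. The ribosomal protein gene RPS18 had 8 counts in the 14 libraries together, the tubulin gene TUBB had 5, and the RNA helicase gene DDX39B had 0, all with 100% of their windows on the contigs. BAK1, with no such window, had 4707 counts, and ACTB on chromosome 7 had 760418. These 5 genes were chosen after their values were seen. Some genes with 90% or more took most of their counts from 1 library, as FLOT1 (196 of 201), BAG6 (228 of 255) and CUTA (395 of 641). Others did not, as TCF19 (at most 199 of 1653 in a library) and BRD2 (162 of 1798). Neither did HLA-B (185 of 1506) and HLA-C (302 of 2318). These examples were also picked by their values, and the part of such differences between libraries in the comparisons was not tested. Whether the authors' mapping reference held these contigs, and how reads with several places were counted, is not given in the sources used here and was not tested.

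**Figure D2:**
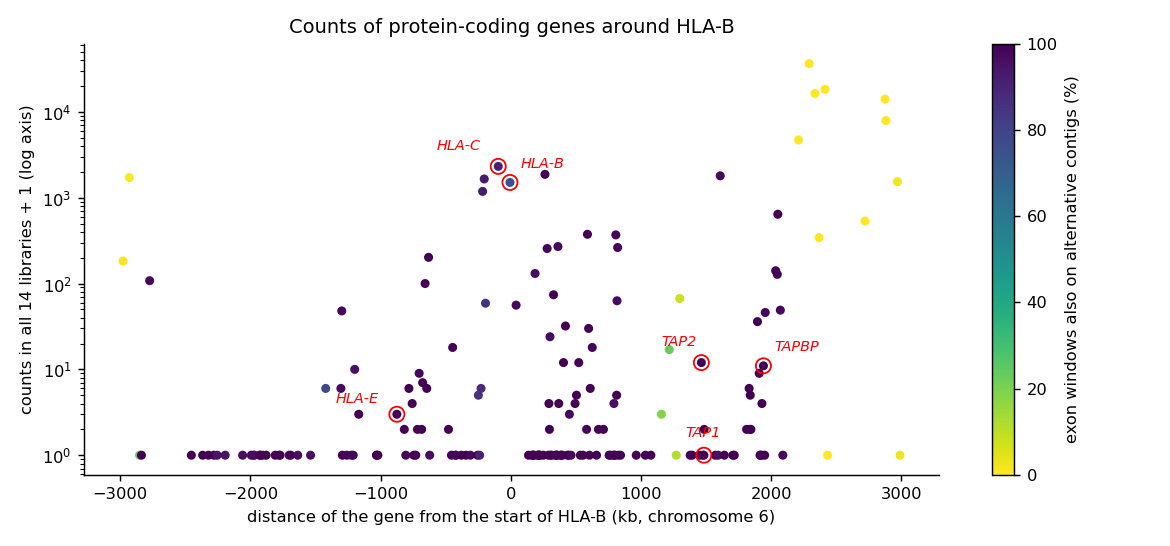
Counts in all 14 libraries plus 1 (log axis) of protein-coding genes by distance from the start of HLA-B along chromosome 6, in kb, coloured by the share of exon windows also found on alternative contigs, with the 6 members of the region circled. HLA-B had 1506 counts and HLA-C 2318, while HLA-E, TAP1, TAP2 and TAPBP lie at 11 counts or fewer, among many neighbours at 0.

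B2M had 3388 counts in the 14 libraries with 93.4% of its windows on the contigs. How many of its reads were left uncounted was not tested, so its level may be incomplete. Of the exon windows off the contigs, 25 of HLA-B, 4 of HLA-C and none of B2M were wholly coding. The alleles that CWR22Rv1 carries were not read here.

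The labelled tissue was checked against its markers. The 8 luminal prostate genes, KLK3 among them, summed to 2067 to 2154 CPM (counts scaled to library size) in DMSO and to 2397 to 3017 CPM with the inhibitors. The 6 leukocyte markers summed to 1.32 to 1.56 CPM in DMSO, 0.743 to 1.59 with Fucotrim I, 1.68 to 1.70 with Fucotrim II, 1.01 to 1.22 with SGN-2FF and 1.07 to 1.20 with P-SiaFNEtoc. CD3E, which defines T cells, had 0 counts in all 14 libraries, and PTPRC, the common leukocyte antigen, had 0 to 3. The 5 fibroblast markers summed to 19.6 to 21.8 CPM in DMSO, 22.2 to 27.1 with Fucotrim I, 26.4 to 33.0 with Fucotrim II, 19.98 to 22.3 with SGN-2FF and 21.7 to 22.7 with P-SiaFNEtoc, most of it COL1A1, and the 3 endothelial markers to 0.251 CPM or less in every library. The part of these marker levels in the results was not tested. Libraries held 12553094 to 19981453 counts.

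HLA-B and HLA-C present peptides to CD8 T cells. HLA-B stood at 6.60, 5.002 and 5.89 CPM in the DMSO libraries (90 to 120 counts). It stood at 8.96, 7.84 and 7.45 CPM with Fucotrim I and at 8.42 and 10.5 CPM with Fucotrim II. All 5 Fucotrim libraries were above the same 3 DMSO libraries. In RNA of whole cultures, more RNA per cell and more cells that express a gene cannot be told apart. With SGN-2FF the values were 6.51, 5.35 and 4.03 CPM, and with P-SiaFNEtoc they were 5.63, 6.81 and 5.86 CPM. Both of these groups overlapped DMSO.

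HLA-C stood at 8.80, 8.17 and 7.08 CPM in DMSO (113 to 160 counts), at 11.1, 9.86 and 9.71 CPM with Fucotrim I, and at 17.5 and 17.1 CPM with Fucotrim II (291 and 302 counts). The Fucotrim I libraries lay just above DMSO, and those of Fucotrim II were far above every other library. With SGN-2FF HLA-C was 10.4, 9.92 and 8.05 CPM and with P-SiaFNEtoc 8.995, 9.65 and 8.70 CPM, and each group overlapped DMSO by its lower values.

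With Fucotrim I, 2 of the 4 tested members were called by edgeR's quasi-likelihood F test (adjusted p under 0.05 after Benjamini-Hochberg correction), both higher, in a comparison where 43.8% of all genes tested were called, 21.6% higher and 22.1% lower. The libraries of 3 of the 4 did not overlap DMSO, against 52.6% of all genes. HLA-B differed by a log2 fold change of 0.48 ± 0.14 (SE, adjusted p = 0.00840) and HLA-C by 0.35 ± 0.12 (SE, adjusted p = 0.0221). Without DMSO replicate 2 the HLA-B call was lost (log2 fold change 0.37, adjusted p = 0.0516). The HLA-C call was lost without DMSO replicate 3 (0.27, adjusted p = 0.116), without Fucotrim I replicate 1 (0.29, adjusted p = 0.0804) and by the DESeq2 test (0.36, adjusted p = 0.0628).

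With Fucotrim II, 2 of the 5 tested members were called, again both higher, where 51.4% of all genes were called, 25.6% higher and 25.7% lower. The fifth, NLRC5, passed the count filter through its Fucotrim II libraries and is left out of the next count. The libraries of 2 of the other 4 did not overlap DMSO, against 67.7% of all genes. HLA-B differed by 0.69 ± 0.16 (SE, adjusted p = 0.00532) and HLA-C by 1.10 ± 0.12 (SE, adjusted p = 8.3e-05). Both calls were kept under all 15 alternatives, in which the log2 fold change of HLA-C ranged from 1.01 to 1.18 and that of HLA-B from 0.52 to 0.84.

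With SGN-2FF, 1 of the 4 tested members was called, B2M lower, where 20.6% of all genes were called, 11.5% higher and 9.08% lower. Only B2M had libraries that did not overlap DMSO, against 36% of all genes. HLA-B differed by −0.13 (95% interval −0.45 to 0.20, adjusted p = 0.617) and HLA-C by 0.25 (0.0043 to 0.49, adjusted p = 0.142). With P-SiaFNEtoc none of the 4 was called by edgeR, where 16.3% of all genes were called, 9.02% higher and 7.33% lower. B2M, 1 of the 4, had an unadjusted p under 0.05. Its libraries did not overlap DMSO, and neither did those of 33.7% of all genes. The DESeq2 test and limma-voom also called 0. HLA-B differed by 0.062 (−0.21 to 0.34, adjusted p = 0.804) and HLA-C by 0.18 (−0.045 to 0.41, adjusted p = 0.279). Both intervals of HLA-C reach its fold change with Fucotrim I.

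**Figure D3:**
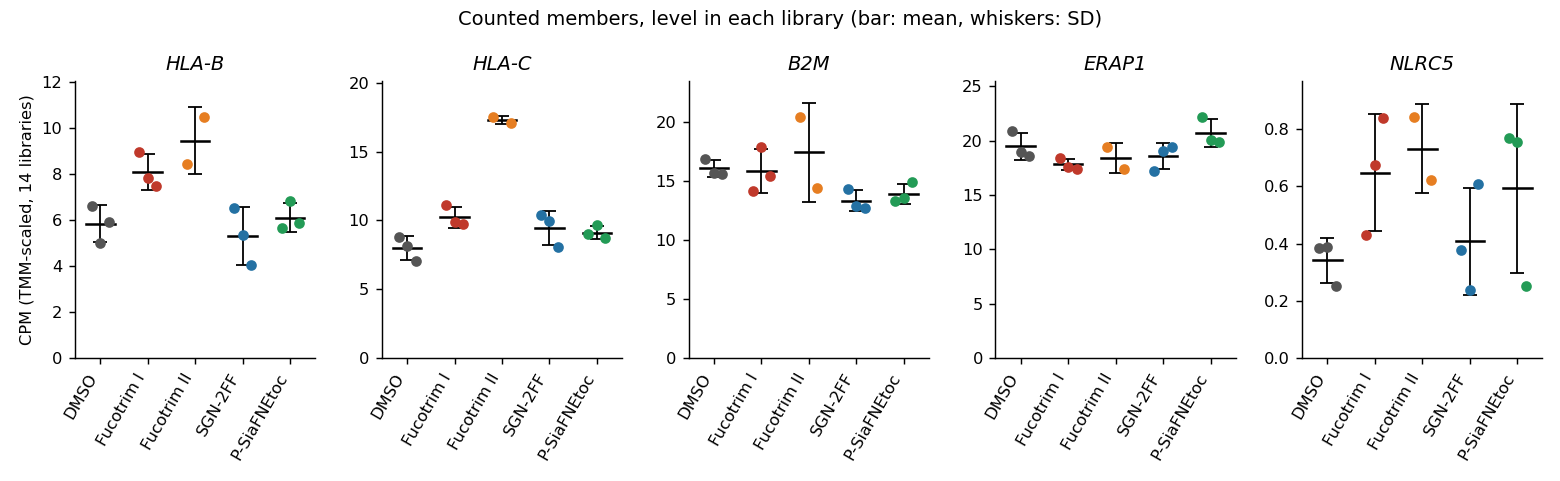
CPM of the 5 counted genes in each of the 14 libraries, scaled together, with each group's mean as a bar and its SD as whiskers (n = 3, Fucotrim II n = 2). HLA-B and HLA-C are above DMSO in all 5 Fucotrim libraries. B2M is below DMSO in every SGN-2FF and P-SiaFNEtoc library and on either side of it with Fucotrim II. ERAP1 ranges from 17.2 to 22.2 CPM, and NLRC5 is under 0.85 CPM throughout.

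The other genes whose exons lie mainly on the contigs were counted in the same comparisons. Among tested protein-coding genes with 75% or more of their windows there, members left out, 8 of 80 (10%) rose and 5 fell with Fucotrim I, with a median log2 fold change of 0.023, while 23.9% of the 7225 genes with no window there rose. With Fucotrim II 14 of 89 (15.7%) rose and 18 fell, with a median of 0.012, while 28.3% of 7435 rose. On chromosome 6 there were 8 and 12 such genes, of which 0 rose with either compound and 2 fell with Fucotrim II. Of these, 1 had a larger log2 fold change than HLA-B and HLA-C with Fucotrim I, and with Fucotrim II 3 were above HLA-B and 2 above HLA-C, up to 5.39, none of them called. Over all chromosomes, 7 of the 89 with Fucotrim II had a larger log2 fold change than HLA-C. Among all protein-coding genes, tested or not, the median total was 0 counts at a share of 100%. It was 5 at 90% and under 100%, and 1204 with no window there. Depth was not matched between the classes, so their shares of genes that rose cannot be compared directly.

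B2M binds every class I heavy chain and is needed for it to leave the endoplasmic reticulum. It stood at 16.9, 15.7 and 15.7 CPM in DMSO, at 14.2, 17.9 and 15.5 CPM with Fucotrim I and at 20.5 and 14.5 CPM with Fucotrim II. The 2 Fucotrim II libraries lay on either side of DMSO. With SGN-2FF B2M was 14.4, 12.9 and 12.8 CPM and with P-SiaFNEtoc 13.3, 13.6 and 14.9 CPM. Each of these groups lay below all 3 DMSO libraries. In the same comparisons 36% and 33.7% of all genes had libraries that did not overlap DMSO, in either direction. Both groups were set against the same DMSO libraries, so their results are not independent.

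The log2 fold change of B2M was −0.26 ± 0.088 (SE, adjusted p = 0.0345) with SGN-2FF and −0.21 ± 0.085 (SE, adjusted p = 0.0901) with P-SiaFNEtoc. The call with SGN-2FF was lost without DMSO replicate 1 (adjusted p = 0.123), DMSO replicate 3 (0.0572), SGN-2FF replicate 2 (0.144) or SGN-2FF replicate 3 (0.0870), by the DESeq2 test (0.122) and in a single fit of all 14 libraries (0.130). B2M differed by −0.015 (95% interval −0.22 to 0.19, adjusted p = 0.916) with Fucotrim I and by 0.11 (−0.21 to 0.43, adjusted p = 0.544) with Fucotrim II. Without Fucotrim II replicate 2 the latter was called higher (0.33, adjusted p = 0.0161), and without replicate 1 it was −0.16.

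**Figure D4:**
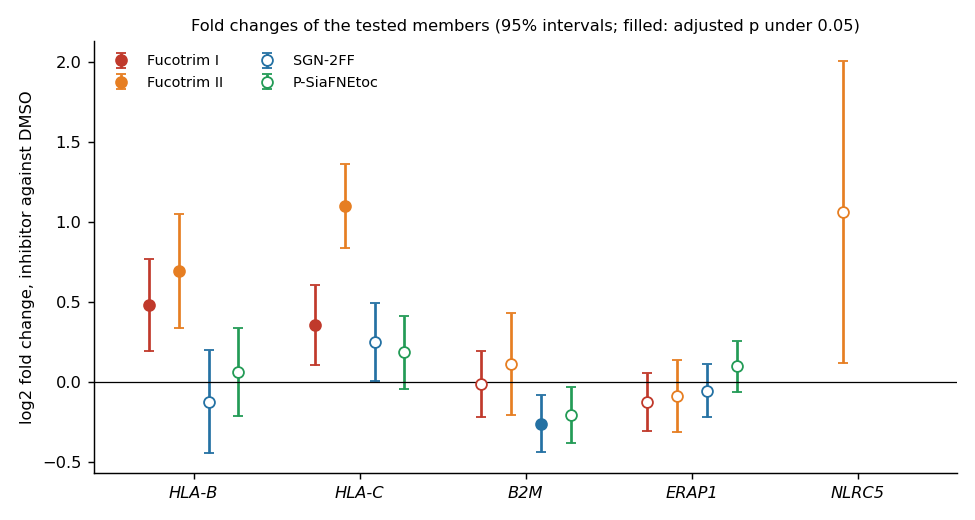
Log2 fold changes of the tested members against DMSO with 95% intervals, by inhibitor, filled where the adjusted p was under 0.05. The filled points are HLA-B and HLA-C with both Fucotrims and B2M with SGN-2FF, and the widest interval is that of NLRC5 with Fucotrim II (0.12 to 2.00), a gene that passed the count filter through that group. Genes called differed by a median size of 0.34 (log2) with Fucotrim I and 0.51 with Fucotrim II.

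ERAP1, the aminopeptidase that trims peptides in the endoplasmic reticulum, was the member counted without such copies at a fair depth (208 to 461 counts). It stood at 20.9, 19.0 and 18.6 CPM in DMSO, 18.4, 17.6 and 17.4 with Fucotrim I, 19.4 and 17.4 with Fucotrim II, 17.2, 19.1 and 19.4 with SGN-2FF and 22.2, 20.1 and 19.8 with P-SiaFNEtoc. The Fucotrim I libraries lay just below DMSO without overlap, which 52.6% of all genes did in 1 direction or the other. Its log2 fold changes were −0.13 (95% interval −0.31 to 0.055), −0.088 (−0.31 to 0.14), −0.057 (−0.22 to 0.11) and 0.095 (−0.062 to 0.25) with Fucotrim I, Fucotrim II, SGN-2FF and P-SiaFNEtoc, and none was called (adjusted p = 0.252, 0.490, 0.663 and 0.430). A change of ERAP1 of the size of HLA-C with Fucotrim II lies outside all 4 intervals.

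NLRC5, which drives class I transcription, was at the limit of detection, with 4 to 16 counts in every library. It stood at 0.385, 0.389 and 0.251 CPM in DMSO, 0.430, 0.675 and 0.837 with Fucotrim I, and 0.842 and 0.622 with Fucotrim II. All 5 Fucotrim libraries were above DMSO in CPM, though Fucotrim I replicate 1 had 6 counts against 4 to 7 in DMSO. Of all genes tested, 52.6% with Fucotrim I and 67.7% with Fucotrim II did not overlap DMSO, in either direction. With SGN-2FF it was 0.379, 0.238 and 0.608 CPM and with P-SiaFNEtoc 0.770, 0.757 and 0.252 CPM, and both groups overlapped DMSO. It passed the count filter in the Fucotrim II comparison alone, through the libraries in which it was high. The log2 fold change there was 1.06 ± 0.42 (SE, adjusted p = 0.0592), was not called and is given as a description.

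HLA-E had 1 count in 1 Fucotrim I and in 1 Fucotrim II library and 0 in the other 12. TAP1 had 0 in all 14, a count of 0 that allows up to 0.150 to 0.239 CPM by counting error alone. TAP2 had 11 counts in all, at most 3 in a library, and TAPBP had 10, at most 3 in a library. None of the 4 was tested.

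Per kb of exon, the levels in DMSO were 5.16 ± 0.22 RPKM (CPM per kb, SD, n = 3) for B2M, 3.20 ± 0.35 for HLA-C, 2.45 ± 0.16 for ERAP1, 1.26 ± 0.17 for HLA-B and 0.0276 ± 0.0064 for NLRC5. Each neighbouring pair in this order was separated by more than the sum of its SDs. The order is one of counted reads per kb of all exons, and how much of each gene's exons could be counted was not tested. For HLA-B all exons include some far upstream of its coding start.

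The promoters of HLA-B and HLA-C, called higher with both Fucotrims, are shown beside that of B2M, which was called with neither. A missing call does not show that B2M was unchanged, and no link between promoters and fold changes was tested. Shown are the 250 bases before the RefSeq start (GRCh38.p14), 5′ to 3′ on the strand of the gene, with matches in capitals to TTTCACTT and GAAANNGAA (as in interferon-response elements), TGACG (as in the X2 box that NLRC5 complexes use), CCAAT (the box of NFY proteins) and GGGATTCCC (as in NF-kB sites of class I promoters), on either strand. RefSeq gave a promoter for 7 of the 9 members. The RefSeq start of each of these genes lies inside the gene model used for its exon windows. The sequence shown for HLA-B lies wholly inside its model, and those of HLA-C and B2M overlap theirs in part. The first wholly coding window of the HLA-B model begins 9915 bases from that model's start.
HLA-B, chr6:31357180-31357429: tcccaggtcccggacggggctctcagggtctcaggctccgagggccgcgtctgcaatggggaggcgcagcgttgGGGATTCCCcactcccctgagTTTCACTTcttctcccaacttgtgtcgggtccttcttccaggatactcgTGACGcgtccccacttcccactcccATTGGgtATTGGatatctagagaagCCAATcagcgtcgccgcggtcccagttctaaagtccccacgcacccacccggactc
HLA-C, chr6:31272093-31272342: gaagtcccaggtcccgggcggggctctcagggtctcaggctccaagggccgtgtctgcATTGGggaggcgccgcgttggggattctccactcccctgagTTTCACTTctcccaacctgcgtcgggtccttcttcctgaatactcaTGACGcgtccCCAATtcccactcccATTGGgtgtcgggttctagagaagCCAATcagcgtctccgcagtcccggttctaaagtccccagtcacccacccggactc
B2M, chr15:44711267-44711516: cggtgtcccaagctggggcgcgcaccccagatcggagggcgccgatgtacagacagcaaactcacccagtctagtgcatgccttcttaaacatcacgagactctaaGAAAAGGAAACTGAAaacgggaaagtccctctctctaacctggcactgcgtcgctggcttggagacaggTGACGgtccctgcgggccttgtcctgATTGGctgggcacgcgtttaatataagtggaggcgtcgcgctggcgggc

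HLA-B and HLA-C held TTTCACTT at −155 and −151 and TGACG at −106 and −105, counted from the start, each followed by CCAAT boxes. B2M held TGACG at −75 and ATTGG, the same box on the other strand, at −49, and 2 overlapping matches to GAAANNGAA from −144. Of 35116 promoters of that length, 1.37% held TTTCACTT, 6.88% held GAAANNGAA, 21.2% held TGACG and 32.01% held CCAAT. GGGATTCCC, found in HLA-B at −176 and not in HLA-C, was in 0.362%. These are matches of letters and not measured binding.

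Over the 4 log2 fold changes, which share the DMSO libraries, the genes of at least 20 CPM nearest to HLA-B were IGSF8 (Euclidean distance 0.100), B3GAT3 (0.136) and LRRC8A (0.147). Those nearest to B2M were NIPAL2 (0.0557), RIMS3 (0.0977) and KIAA2026 (0.103). Among 8132 such genes, 1544 were nearer to HLA-B than HLA-C was.

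Lists of other genes of the pathway were counted in the same fits. The median log2 fold change over all genes tested lay between 0.00042 and 0.0075 in the 4 comparisons. The counts of each list stand against all genes tested, of which 21.6% rose and 22.1% fell with Fucotrim I, 25.6% and 25.7% with Fucotrim II, 11.5% and 9.08% with SGN-2FF, and 9.02% and 7.33% with P-SiaFNEtoc. Of 12 other class I and class I-like heavy chains, only 2 or 3 were tested. FCGRT, the neonatal Fc receptor heavy chain, rose by 1.44 ± 0.18 (SE, adjusted p = 0.000212) with Fucotrim II, and MR1, which presents vitamin metabolites, rose by 0.81 ± 0.10 (adjusted p = 0.000229) there and by 0.36 ± 0.10 (adjusted p = 0.00769) with Fucotrim I. None was called with SGN-2FF or P-SiaFNEtoc. HLA-F was at 0 in all libraries with 96.1% of its windows on the contigs.

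All 9 genes of quality control and peptide loading in the endoplasmic reticulum were tested. With Fucotrim I 7 fell and 1 rose (median −0.35), and with Fucotrim II 3 fell and 3 rose (median −0.043). CALR, calreticulin, fell by 1.14 (adjusted p = 7.15e-13) with Fucotrim I and rose by 0.28 (adjusted p = 0.0109) with Fucotrim II, and PDIA3 fell by 0.63 and rose by 0.37 in the same comparisons. CANX, calnexin, fell by 0.79 (adjusted p = 5.8e-11) with Fucotrim I and differed by −0.043 (adjusted p = 0.622) with Fucotrim II. STT3B, a catalytic subunit of the enzyme that attaches N-glycans, fell with 3 of the inhibitors, by 0.59, 0.23 and 0.10 with Fucotrim I, Fucotrim II and SGN-2FF. BCAP31, an export factor of the endoplasmic reticulum, rose by 0.27 and 0.38 with the Fucotrims, and TAPBPL, a tapasin-like peptide editor, was not called in any comparison (0.14 to 0.26). With P-SiaFNEtoc 0 of the 9 were called, by limma-voom and the DESeq2 test too. With any 1 of the 3 DMSO libraries left out, the 6 calls with Fucotrim II became 3.

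Of 16 genes of peptide supply, 13 or 14 were tested. With each Fucotrim 4 rose and 6 fell (medians −0.12 and −0.13), with SGN-2FF 1 rose and 1 fell, and with P-SiaFNEtoc 2 fell. The 10 calls with Fucotrim I became 5, 6 and 5 without DMSO replicates 1, 2 and 3 and 4 without Fucotrim I replicate 3, and the 2 with P-SiaFNEtoc became 0 or 1 without any 1 library. PSMB10, the interferon-inducible subunit of the immunoproteasome, rose by 0.52 ± 0.10 (SE, adjusted p = 0.000399) and 0.49 ± 0.097 (adjusted p = 0.00244) with Fucotrim I and II. PSME2, of the proteasome activator, rose by 0.23, 0.26 and 0.18 with Fucotrim I, Fucotrim II and SGN-2FF. The aminopeptidase LNPEP fell by 0.66 with Fucotrim II, and the protease NRDC fell with all 4, by 0.15, 0.48, 0.17 and 0.12. PSMB8 and PSMB9, the other 2 immunoproteasome subunits, had at most 1 count in a library and all their windows on the contigs.

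Of 15 regulators of class I genes, 14 were tested in each comparison. With Fucotrim I 4 fell and 0 rose, with Fucotrim II 7 fell and 2 rose, with SGN-2FF 1 fell and 1 rose, and with P-SiaFNEtoc 3 fell and 1 rose. Without Fucotrim I replicate 2 the 4 calls with Fucotrim I became 7. NFYA, the DNA-contacting subunit of the CCAAT-box factor, fell by 0.42 (adjusted p = 1.07e-05), 0.58 (adjusted p = 0.000189) and 0.24 (adjusted p = 0.00101) with Fucotrim I, Fucotrim II and P-SiaFNEtoc. ATF1 fell by 0.42 and 0.60 with the Fucotrims. RFXANK rose by 0.24 and 0.19 with Fucotrim II and SGN-2FF, IRF2 by 0.42 with Fucotrim II and RFX5 by 0.23 with P-SiaFNEtoc. IRF1, an interferon-induced activator, was not called (−0.40 to 0.16), and CIITA, the class II counterpart of NLRC5, had at most 12 counts.

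Of 30 interferon-stimulated genes and genes of interferon signalling, 16 to 18 were tested. With Fucotrim I 3 rose and 4 fell, with Fucotrim II 7 rose and 5 fell, with SGN-2FF 2 fell and with P-SiaFNEtoc 1 rose and 1 fell. The shares called with Fucotrim I were near those of all genes. The 7 calls with Fucotrim I became 4 without Fucotrim I replicate 2, and the 12 with Fucotrim II became 7 without DMSO replicate 3. ISG15, a ubiquitin-like protein, rose by 0.63 ± 0.059 (SE, adjusted p = 5.34e-08), 0.88 ± 0.090 (adjusted p = 7.04e-05) and 0.19 ± 0.046 (adjusted p = 0.00389) with Fucotrim I, Fucotrim II and P-SiaFNEtoc. BST2, tetherin, rose by 0.61 with Fucotrim II (adjusted p = 0.0493). The RNA sensor DDX58 fell by 0.66 and 0.74 with the Fucotrims, and OAS3 fell with all 4, by 0.27, 0.64, 0.32 and 0.25. None of the 8 class II genes was tested, and 6 of them had 95.6% or more of their windows on the contigs.

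Of 8 genes of surface turnover, 7 were tested. HM13, the signal peptide peptidase that releases the leader peptides HLA-E displays, rose with all 4 inhibitors, by 0.29 (adjusted p = 0.000264), 0.65 (adjusted p = 0.000139), 0.12 (adjusted p = 0.0379) and 0.12 (adjusted p = 0.0481) for Fucotrim I, Fucotrim II, SGN-2FF and P-SiaFNEtoc. The call with P-SiaFNEtoc was lost whichever library was left out. MARCHF9, a ubiquitin ligase that takes class I from the surface, rose by 0.40 with Fucotrim II. WWP2 fell by 0.18 with SGN-2FF, and RNF139 was not called (−0.094 to 0.0061).

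**Figure D5:**
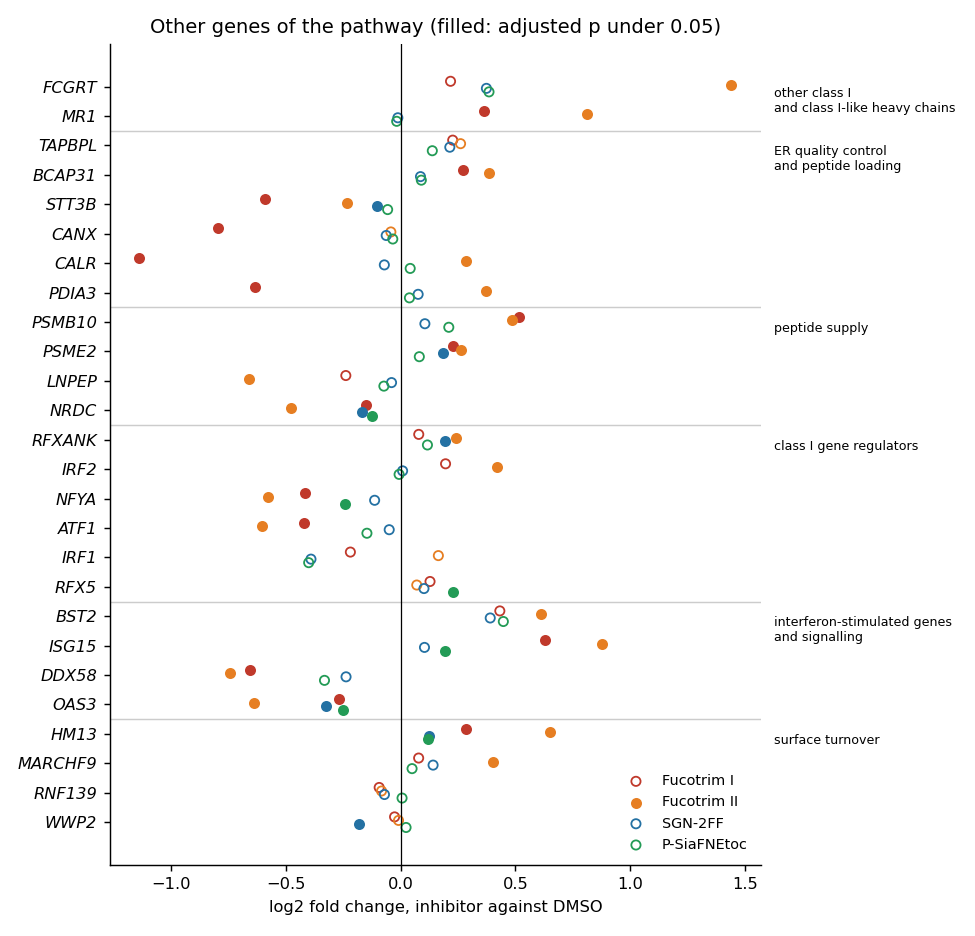
Log2 fold changes against DMSO of the named pathway genes, by list and inhibitor, filled where the adjusted p was under 0.05. CALR, CANX and PDIA3 sit left of 0 with Fucotrim I (−1.14, −0.79 and −0.63), while FCGRT, ISG15 and MR1 sit farthest right with Fucotrim II (1.44, 0.88 and 0.81).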

How the data were processed

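Gene counts of 14 libraries of CWR22Rv1 cells were used. The authors prepared stranded mRNA libraries, checked and trimmed the single-end reads with FastQC and Cutadapt, aligned them to hg38 with HISAT2, and deposited whole-number counts per gene from featureCounts, without normalization. Per the labels' processing notes the tools include FastQC, featureCounts and limma. The annotation release, strand setting and treatment of reads with several places are not given in the sources used here. Doses and times come from the study's methods, which describe the libraries of a group as biological repeats. Each inhibitor's table repeats the same DMSO libraries, with identical counts, and genes of the SGN-2FF table were matched by NCBI gene number.

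Each inhibitor was fitted alone with DMSO in edgeR 4.0.16 (R 4.3.3): filterByExpr (minimum count 10, total 15), TMM scaling, robust quasi-likelihood test and Benjamini-Hochberg adjustment over all genes tested, with 0.05 as threshold. CPM by library come from 1 scaling of all 14. Alternatives used limma 3.58.1 and DESeq2 1.42.0, other filters and scalings, and each library left out. Simulated counts with 200 altered genes served to test the fit. Exon windows come from GENCODE gene models on hg38, promoters from RefSeq. Named pathway genes were, for each list, the 2 with the largest and the 2 with the smallest mean of the 4 log2 fold changes among genes tested with all 4 inhibitors, plus PSMB8, PSMB9, PSMB10, CALR, CANX, PDIA3, IRF1, RFX5, CIITA and HLA-F. Some genes that this rule names are not reported here. The members and lists were chosen with earlier results of these data known. Figures were drawn with matplotlib 3.10.9.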

Additional observations from a re-analysis of the deposited data

How the results depend on the processing

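Over the alternatives tried for the tested members, 234 gene values kept their direction and side of the threshold, 12 lost a call, 1 gained one and 7 changed sign. With Fucotrim I the 2 members called became 1 by the DESeq2 test and at an adjusted p under 0.01, and 1 to 2 when a library was left out. With SGN-2FF the 1 member called became 0 by the DESeq2 test, in the single fit of all 14 libraries and at an adjusted p under 0.01, and 0 to 1 when a library was left out. With Fucotrim II the count was 2 throughout and 2 to 3 when a library was left out, and with P-SiaFNEtoc it was 0 throughout. None of the sign changes concerned a call. When a library was left out, the log2 fold change of B2M ranged from −0.12 to 0.067 with Fucotrim I and from −0.16 to 0.33 with Fucotrim II, and that of HLA-B from −0.28 to 0.022 with SGN-2FF and from −0.041 to 0.16 with P-SiaFNEtoc. The cause was not tested.

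Fits with the replicate number as a block called 2, 2, 1 and 0 members with Fucotrim I, Fucotrim II, SGN-2FF and P-SiaFNEtoc, and 2 for Fucotrim II with the numbers of the library names, which differ from those of the titles. Pairing was not shown: deviations of same-numbered libraries correlated at 0.15, 0.14 and 0.021 with Fucotrim I, and at −0.17 and −0.23 (titles) or 0.23 and 0.065 (library names) with Fucotrim II, and at −0.068 to 0.066 with the other two inhibitors.

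Counts of list genes called that moved by over 1.5 times with the Fucotrims stand beside each list. The lists with 1 or 2 calls with SGN-2FF had 0 to 4 when a library was left out, and the interferon list with P-SiaFNEtoc went from 2 to between 1 and 3. Counts near 100 limit the precision of HLA-B and HLA-C, and NLRC5 was near the count filter.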
